A study of Mus musculus with 33 samples.

Results

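Calvarial-OB cells, by their label osteoblasts of the skull vault, were compared with fibroblasts from the tail tip. The comparison used 6 of the 33 samples of the series, 3 poly-A RNA sequencing libraries per group, taken as all fibroblast and calvarial-OB columns of the count table. The fibroblasts came from Col2.3GFP mice, a reporter strain with green fluorescent protein under a type I collagen promoter fragment active in osteoblasts, and were expanded for 2 passages and frozen before use. The calvarial-OB libraries came from cells labelled as calvarial progenitors with osteoblast differentiation as their cell type, and their titles mark them as a second dataset. The lentivirus in the labels' protocols is described for the reprogramming of fibroblasts, not for these 2 groups. The strain, age and sex of the mice, any pooling, the time in osteogenic medium and any reporter in the calvarial cells were not given in the sources used here. Osteoblast identity, tissue of origin, culture and dataset differ together between the groups, and their parts cannot be told apart. The same holds for the sex of the source mice as far as the transcript Xist shows, as given below. Nothing in the labels says that the 3 libraries of a group came from separate mice or cultures, so p-values measure only the spread between these libraries, which may be technical.

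Osteoblasts secrete and mineralize bone matrix. The transcription factor Runx2 commits mesenchymal cells to this lineage and Sp7 (osterix) acts after it; Alpl, a phosphatase on the cell surface, frees phosphate for mineral, and Ibsp, Bglap and other secreted proteins bind mineral. Cells that become buried in bone turn into osteocytes, which make Dmp1, Mepe, Phex and the Wnt inhibitor Sost. The skull vault arises from head mesenchyme, which forms without Hox genes in its front part, while fibroblasts of the trunk and tail keep a Hox pattern of their position along the body axis.

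The start-site regions of 4 secreted bone proteins, picked by hand as examples, are printed. Bglap, Mepe and Ibsp were far higher in calvarial-OB and Spp1 was lower, as given below. The sequences are from RefSeq (GRCm38.p6) and cover the 250 bases before the start of the transcript, 5′ to 3′ on the gene's strand: Bglap at chr3:88384467-88384716, minus strand, Mepe at chr5:104325079-104325328, plus strand, Ibsp at chr5:104299037-104299286, plus strand and Spp1 at chr5:104434861-104435110, plus strand. Capitals mark 2 searched motifs on either strand, the core letters of the Runx binding site, ACCACA or TGTGGT, and the TATA letters TATAAA or TTTATA.
Bglap: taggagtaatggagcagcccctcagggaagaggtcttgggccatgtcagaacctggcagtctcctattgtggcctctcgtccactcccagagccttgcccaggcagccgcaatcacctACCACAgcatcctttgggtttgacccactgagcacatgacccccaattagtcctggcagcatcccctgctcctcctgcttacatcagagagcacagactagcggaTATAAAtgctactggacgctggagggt
Mepe: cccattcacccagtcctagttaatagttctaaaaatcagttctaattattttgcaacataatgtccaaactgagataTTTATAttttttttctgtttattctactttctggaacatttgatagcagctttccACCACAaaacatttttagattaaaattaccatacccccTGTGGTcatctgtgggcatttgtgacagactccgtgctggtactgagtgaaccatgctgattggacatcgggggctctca
Ibsp: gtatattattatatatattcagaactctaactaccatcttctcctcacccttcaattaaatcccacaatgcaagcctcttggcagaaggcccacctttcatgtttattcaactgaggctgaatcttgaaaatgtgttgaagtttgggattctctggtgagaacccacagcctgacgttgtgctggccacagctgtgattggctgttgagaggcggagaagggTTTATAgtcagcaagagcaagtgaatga
Spp1: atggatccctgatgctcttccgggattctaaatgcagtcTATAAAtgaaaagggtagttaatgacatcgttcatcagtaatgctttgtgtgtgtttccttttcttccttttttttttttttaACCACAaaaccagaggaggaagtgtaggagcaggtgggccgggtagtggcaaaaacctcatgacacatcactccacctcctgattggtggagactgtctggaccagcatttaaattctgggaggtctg
The Runx core began 132 bases before the start of Bglap, 118 and 80 bases before that of Mepe and 128 bases before that of Spp1. It was not in the Ibsp window, where the TATA letters TTTATA began 28 bases before the start, and in Bglap TATAAA began 27 bases before it. Spp1 had 2 starts in the table; the first listed is shown. Of 16 bone matrix genes looked up, 11 had an entry, and 4 of these (Bglap, Mepe, Spp1 and Dmp1) had the Runx core in at least 1 window. Bglap3 had 3 windows, and Spp1 and Dmp1 had 2 each with the core in 1 of them. Of all 32851 windows, 14.0% had the core and 12.4% had the TATA letters. These are shares per window, so the count per gene cannot be set against them directly. Such matches are letters in a window and were not tested for binding.

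The 6 libraries held between 7634593 and 15023771 counts. The test kept 13174 of the 17798 genes with a count, and a gene was called when its edgeR quasi-likelihood adjusted p was below 0.05; higher and lower always refer to calvarial-OB relative to fibroblast. Of the tested genes, 6790 (51.5%) were called, 3412 (25.9%) higher and 3378 (25.6%) lower. Called differences of at least 2-fold were more frequent upwards, with 1928 genes (14.6%) higher and 1234 (9.37%) lower. The levels of the 2 groups did not overlap for 8038 genes (61%). The shares of members called in the groups of genes below are to be read against these backgrounds, and their medians against a median log2 difference of 0.01 over all tested genes. Expression is given as CPM (counts scaled by TMM library size), per library in replicate order, and differences as log2 fold change ± SE from the fit.

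**Figure D1:**
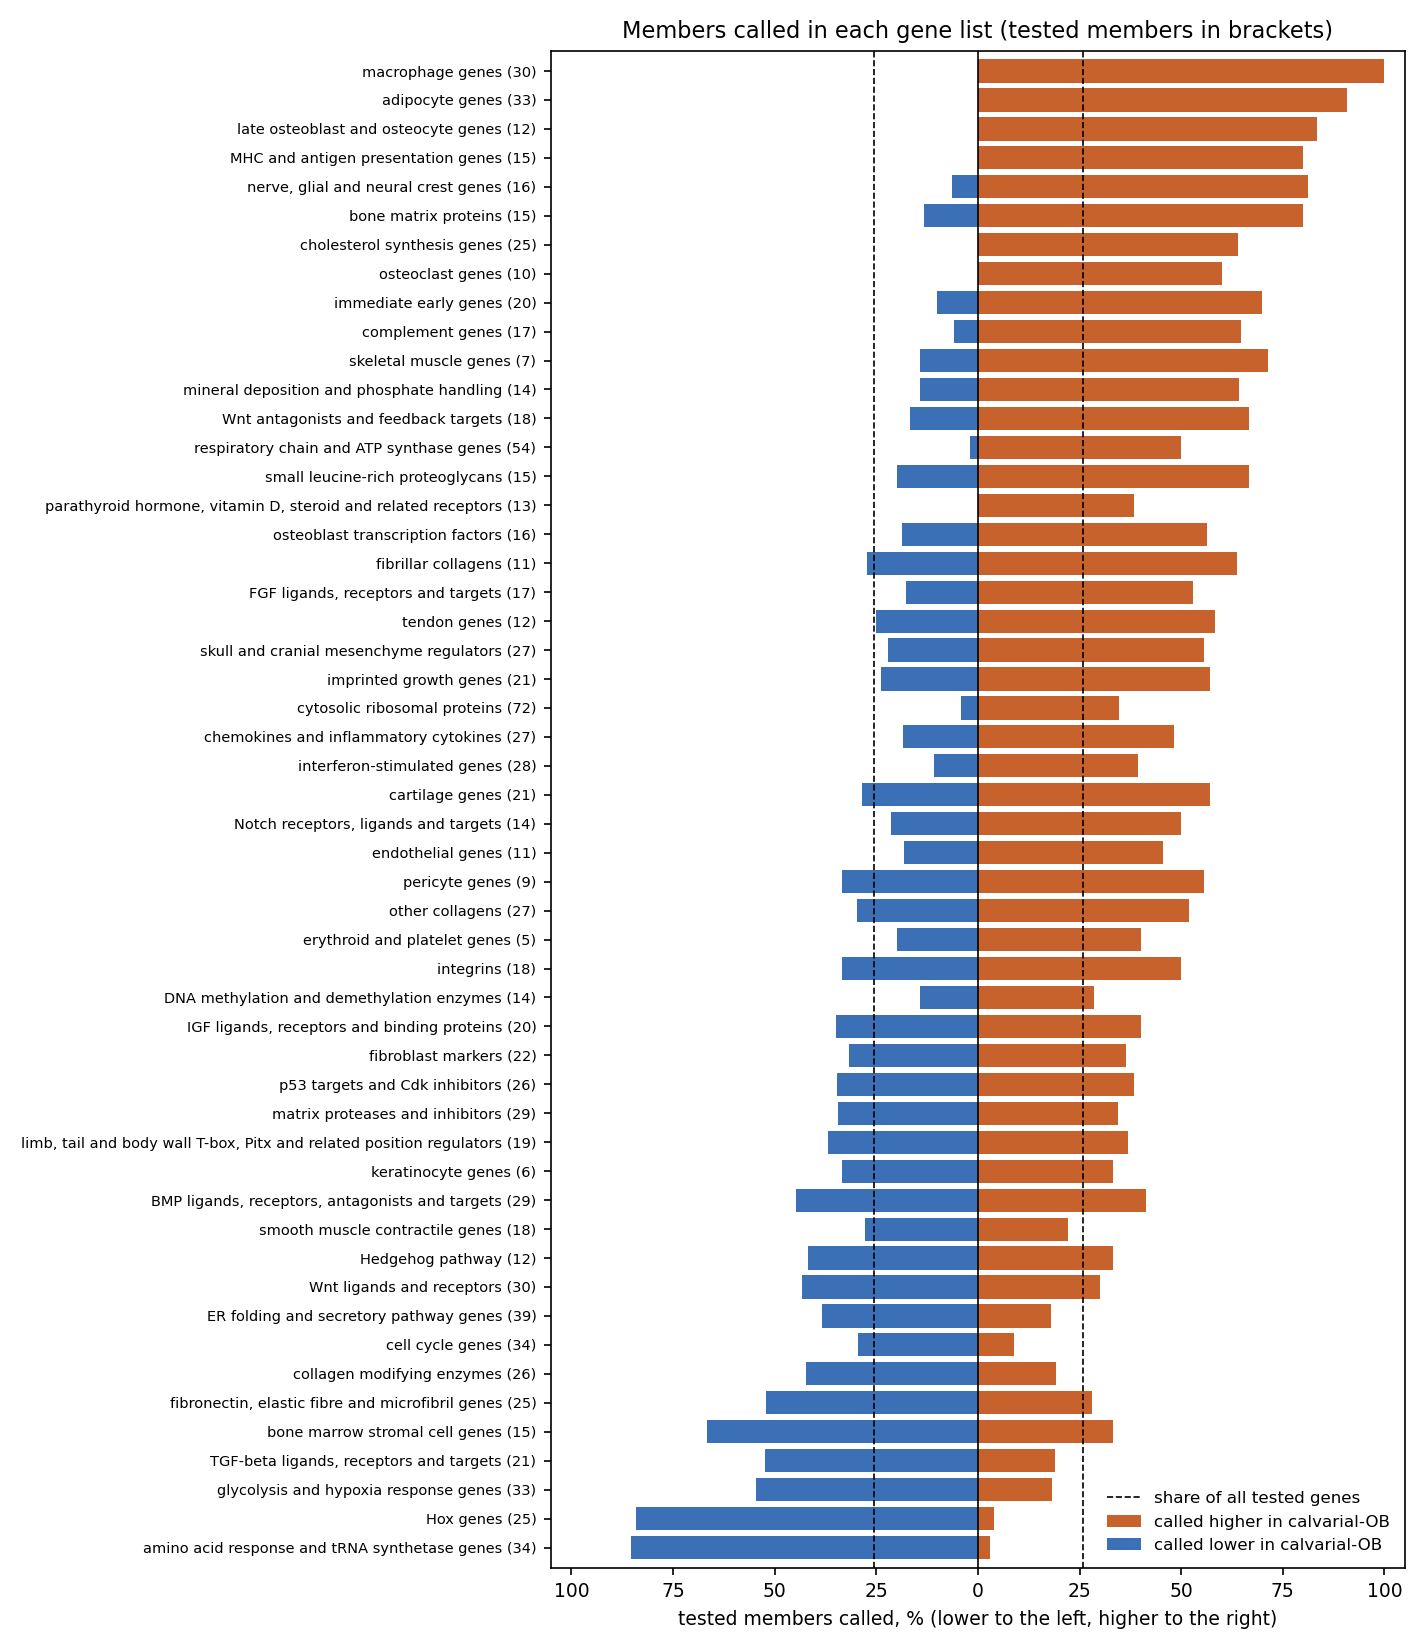
Share of tested members called higher (orange, right) or lower (blue, left) in calvarial-OB, in percent, for each gene list with at least 5 tested members; dashed lines mark the shares of all tested genes, 25.9% higher and 25.6% lower. Macrophage, adipocyte and late osteoblast genes stood at the upper end, and Hox genes and amino acid response genes at the lower end.

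The calvarial-OB libraries carried the defining markers of osteoblasts, beside markers of other cell types. All 7 osteoblast markers looked up (Runx2, Sp7, Alpl, Ibsp, Bglap, Bglap2 and Col1a1) were called higher, as were the 4 osteocyte markers. Of 5 fibroblast markers, Pdgfra (-0.53 ± 0.12) and S100a4 (-1.30 ± 0.17) were lower, Dpt (1.89 ± 0.18) and Col3a1 (1.44 ± 0.12) higher and Thy1 (0.26 ± 0.16) not called, so they did not separate the groups in 1 direction. The summed levels of macrophage, adipocyte, glial and skeletal muscle genes were also higher in every calvarial-OB library than in any fibroblast library, as described below. In bulk RNA, fewer cells of a type and less RNA per cell cannot be told apart, and the part of other cell types in each result was not tested.

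Calvarial-OB replicate 1 stood apart from the others of its group: it correlated with replicates 2 and 3 at 0.971 and 0.968 (log2 CPM across tested genes, Pearson), while the other two correlated at 0.986 and the fibroblast pairs at 0.990 to 0.994. Genes are not independent replicates, so these are descriptions. Fibroblast replicate 1 differed from its group in a few inflammatory genes. Leaving out replicate 1 of both groups gave 3472 genes higher and 3398 lower, close to the full comparison. Many results that rest on either library are given with and without it, but not all. The X-inactivation transcript Xist had 0, 1 and 2 counts in the fibroblast libraries and 341, 186 and 2211 in the calvarial-OB libraries, an 848-fold ratio with a 95% Clopper-Pearson interval of 290 to 4110, which covers counting error only as do the other intervals and bounds given here. The ratio was 546 without fibroblast replicate 1, 1510 without fibroblast replicate 3 and 317 without calvarial-OB replicate 3. The Y-linked genes Ddx3y, Eif2s3y, Kdm5d and Uty had counts in all 6 libraries, with Ddx3y at 94.4, 88.7 and 89.9 CPM in the fibroblast libraries and 78.4, 63.1 and 86.6 CPM in the calvarial-OB libraries. Kdm5d (-1.04 ± 0.13) and Uty (-0.84 ± 0.15) were lower in calvarial-OB. Every calvarial-OB library thus held both Xist and Y-linked RNA, while the fibroblast libraries held Y-linked RNA and almost no Xist. Xist moved with the groups, so the part of sex in other results cannot be told apart from theirs and was not tested.

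Transcription factors of the osteoblast programme differed by very unequal amounts. Runx2 itself was present in both cell types: it was measured at 61.5, 75.1 and 67.9 CPM in the fibroblast libraries and 113, 107 and 95 CPM in the calvarial-OB libraries, a log2 difference of 0.62 ± 0.13 (edgeR adjusted p = 0.00232). The groups did not overlap, and the difference was the smallest among the 7 osteoblast markers. Sp7, which acts downstream of Runx2, stood at 3.12, 4.13 and 2.97 CPM in the fibroblast libraries and 41.3, 78.9 and 44.2 CPM in the calvarial-OB libraries, a difference of 4.03 ± 0.29 (edgeR adjusted p = 3.5e-06). Dlx5, a homeobox activator of Runx2 and Sp7, stood at 1.01, 1.1 and 0.643 CPM in the fibroblast libraries and 14.8, 15.9 and 13 CPM in the calvarial-OB libraries (4.01 ± 0.26). Its paralogue Dlx3 was higher too (5.13 ± 0.39), and Dlx6, the neighbour of Dlx5, had 0 counts in every fibroblast library and 5.55, 2.94 and 3.87 CPM in the calvarial-OB libraries, at least 41.5-fold higher. Atf4, a stress-responsive factor needed for late osteoblast function, did not pass the test (-0.12 ± 0.12, edgeR adjusted p = 0.445). The factors called lower were Zfp521 (-0.74 ± 0.12), Twist2 (-2.49 ± 0.23) and Trps1 (-1.19 ± 0.13), while Twist1 and Hey1 were not called lower. Over the whole list of these factors, 9 of the 16 tested members were called higher and 3 lower, with a median log2 difference of 0.59, against 25.9% higher and 25.6% lower among all tested genes.

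Most genes of secreted bone matrix proteins were higher, some by orders of magnitude. Ibsp (bone sialoprotein), an acidic glycoprotein that binds apatite and integrins, was measured at 1.83, 2.06 and 8.92 CPM in the fibroblast libraries and 2531, 3013 and 2828 CPM in the calvarial-OB libraries. The lowest calvarial-OB library was far above the highest fibroblast library, and the log2 difference was 9.27 ± 0.53 (edgeR adjusted p = 9.55e-07), or 10.48 without fibroblast replicate 3, the fibroblast library with the highest level. Bglap (osteocalcin), a hormone and mineral-binding protein of mature osteoblasts, stood at 0.733, 1.24 and 3.7 CPM in the fibroblast libraries and 685, 821 and 559.7 CPM in the calvarial-OB libraries, a difference of 8.42 ± 0.43, or 9.48 without fibroblast replicate 3. Its near-identical neighbour Bglap2 stood at 0.458, 1.1 and 1.45 CPM in the fibroblast libraries and 381, 435 and 305 CPM in the calvarial-OB libraries (8.52 ± 0.30). The Bglap copies, Bglap3 included, are so alike that the counting may have assigned reads of 1 copy to another, and their separate levels are uncertain. Spp1 (osteopontin), a phosphoprotein of the same family as Ibsp, went the opposite way: it was measured at 2631, 2218 and 2139.8 CPM in the fibroblast libraries and 575, 415 and 506 CPM in the calvarial-OB libraries, a difference of -2.22 ± 0.15 (edgeR adjusted p = 2.55e-06).

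The matrix genes with the largest shares of counts rose less in relative terms. Col1a1 and Col1a2, the chains of type I collagen, took 4.98% and 4.22% of all counts in calvarial-OB against 1.72% and 1.27% in fibroblasts. Col1a1 was measured at 18348, 17918 and 16861 CPM in the fibroblast libraries and 59907, 54141 and 31806 CPM in the calvarial-OB libraries (1.46 ± 0.22), and Col1a2 rose by a similar amount (1.65 ± 0.15). Sparc (osteonectin), a collagen- and mineral-binding protein, took 1.74% against 0.849% of counts (0.95 ± 0.12). Omd (osteomodulin), a keratan sulphate proteoglycan of bone, rose from 15 ± 4.43 to 128 ± 28.2 CPM (SD, n = 3 per group), a difference of 3.11 ± 0.24. Tnn (tenascin-W) was lower (-0.87 ± 0.30), a call that was lost without fibroblast replicate 1 (edgeR adjusted p = 0.12) and without calvarial-OB replicate 3. Over the matrix list, 12 of the 15 tested members (of 16 measured) were called higher and 2 lower, with a median log2 difference of 3.11.

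**Figure D2:**
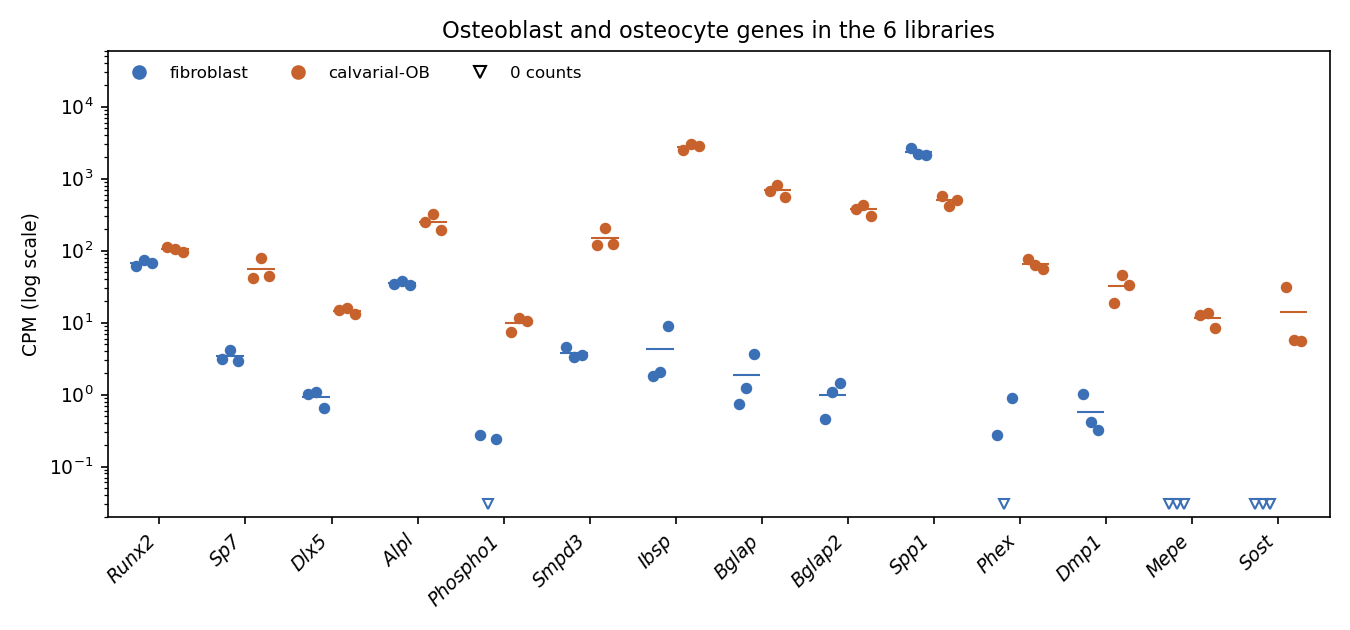
Level of 14 osteoblast and osteocyte genes in each library, in CPM on a log axis, for fibroblast (blue) and calvarial-OB (orange); points are libraries, bars are group means where every library had counts, and open triangles at the bottom mark libraries with 0 counts. Spp1 was higher in fibroblasts, the other 13 genes were higher in calvarial-OB, and Runx2 showed the smallest difference.

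Most genes for the making of mineral were higher. Alpl was measured at 34.4, 37.5 and 33.4 CPM in the fibroblast libraries and 248, 319 and 193 CPM in the calvarial-OB libraries (2.85 ± 0.19, edgeR adjusted p = 1.85e-06). Phospho1, a phosphatase inside matrix vesicles, stood at 0.275, 0 and 0.241 CPM in the fibroblast libraries and 7.44, 11.4 and 10.7 CPM in the calvarial-OB libraries (5.59 ± 0.45), and Smpd3, a sphingomyelinase needed for bone mineralization, at 4.58, 3.3 and 3.54 CPM in the fibroblast libraries and 119, 207 and 124 CPM in the calvarial-OB libraries (5.28 ± 0.27). All calvarial-OB libraries were above all fibroblast libraries for these 3 genes. The calcium exchanger Slc8a3 rose as well (4.82 ± 0.30), as did Mgp (2.48 ± 0.23), an inhibitor of calcification. Enpp1, which makes the mineral inhibitor pyrophosphate, was lower (31.7, 40.6 and 48.1 CPM in the fibroblast libraries and 13.8, 14.8 and 15.9 CPM in the calvarial-OB libraries, -1.43 ± 0.17), while Ank, which exports it, did not pass the test (-0.20 ± 0.14). Slc20a2, a phosphate transporter, was called lower (-0.42 ± 0.15) but lost the call without calvarial-OB replicate 1 or 2 or any 1 fibroblast library (edgeR adjusted p = 0.065 to 0.11). Of this list, 9 of the 14 tested members (of 16 measured) were called higher and 2 lower, with a median log2 difference of 1.19.

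Most genes of late osteoblasts and osteocytes were higher in calvarial-OB, several of them from 0 or few counts in fibroblasts. Mepe, a matrix phosphoglycoprotein, had 0 counts in every fibroblast library and 12.6, 13.5 and 8.44 CPM in the calvarial-OB libraries, at least 111-fold higher. Sost (sclerostin), the osteocyte inhibitor of Wnt signalling, had 0 counts in every fibroblast library and 30.8, 5.65 and 5.56 CPM in the calvarial-OB libraries. Calvarial-OB replicate 1 was the high library, and Sost was at least 123-fold higher with it and at least 57.1-fold higher without it; without calvarial-OB replicate 3 the bound was 186-fold. Dmp1, a matrix protein of osteocytes, stood at 1.01, 0.413 and 0.322 CPM in the fibroblast libraries and 19, 45.3 and 33.6 CPM in the calvarial-OB libraries (5.77 ± 0.45), or 6.48 without fibroblast replicate 1. Phex, a peptidase that limits phosphate loss through Fgf23, stood at 0.275, 0 and 0.884 CPM in the fibroblast libraries and 77.2, 63.7 and 55.9 CPM in the calvarial-OB libraries (7.15 ± 0.40), or 8.53 without fibroblast replicate 3. Fgf23 itself was below the filter in both groups.

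Panx3, a channel protein of osteoblasts, was measured at 0.458, 0.413 and 0.482 CPM in the fibroblast libraries and 91.8, 181 and 144 CPM in the calvarial-OB libraries (8.21 ± 0.35). Ifitm5 (Bril), a membrane protein of mineralizing osteoblasts, stood at 0.55, 0.138 and 0 CPM in the fibroblast libraries and 45.2, 79.4 and 48.5 CPM in the calvarial-OB libraries (7.90 ± 0.49), with 9.85 without fibroblast replicate 1 and 7.19 without fibroblast replicate 3. Ptprz1, a receptor phosphatase, rose by 8.18 ± 0.46, or 8.83 without fibroblast replicate 1. For all of these genes the groups did not overlap, and the size of each rise rests on a few fibroblast counts. Across the list, 10 of the 12 tested members (of 13 measured) were called higher and 0 lower, with a median log2 difference of 6.46, or 6.28 with genes at 0 to 3 counts set to their count-based fold. Members that passed the filter through 1 group alone had to differ, so these counts are descriptions. That group was calvarial-OB here and in the macrophage, adipocyte, muscle, lymphocyte and neutrophil lists, and fibroblast in the Hox list. The bounds against 0 fibroblast counts scale with the depth of that group: for Mepe the bound was 71.2-fold without fibroblast replicate 1 and 65.7-fold without replicate 3, and bounds for the other genes at 0 shrink in about the same way.

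Among hormone receptors, the parathyroid hormone receptor Pth1r showed the clearest rise, at 16.8, 18.8 and 15.5 CPM in the fibroblast libraries and 205, 176 and 122 CPM in the calvarial-OB libraries (3.30 ± 0.20, edgeR adjusted p = 1.37e-06). The vitamin D receptor Vdr was also higher (0.66 ± 0.15). The leptin receptor Lepr rose from 0.539 ± 0.292 to 18.1 ± 6.97 CPM (SD, n = 3 per group; 5.16 ± 0.45) and the endothelin receptor Ednrb by 3.01 ± 0.55, or 1.95 without replicate 1 of both groups. The glucocorticoid receptor Nr3c1 was called higher by a small amount (0.35 ± 0.13), and that call was lost without any 1 fibroblast library and without calvarial-OB replicate 1 or 3 (edgeR adjusted p = 0.078 to 0.16). In the list, 5 of the 13 tested members (of 15 measured) were called higher and 0 lower, with a median log2 difference of 0.35. The progesterone receptor Pgr was below the filter.

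Growth factors of the insulin-like family were much higher in calvarial-OB, while the receptors Igf1r and Igf2r were lower. Igf2, an imprinted fetal growth factor, was measured at 4.67, 2.89 and 2.97 CPM in the fibroblast libraries and 526, 502 and 459.8 CPM in the calvarial-OB libraries (7.12 ± 0.21, edgeR adjusted p = 7.11e-08). Igf1 stood at 43.4, 42.5 and 34 CPM in the fibroblast libraries and 537, 465 and 611 CPM in the calvarial-OB libraries (3.75 ± 0.16). The signalling receptor Igf1r (-1.16 ± 0.14) and the clearance receptor Igf2r (-1.60 ± 0.12) were both lower. Binding proteins split, with Igfbp2 higher at 43.5, 30 and 25.1 CPM in the fibroblast libraries and 646, 535 and 652 CPM in the calvarial-OB libraries (4.22 ± 0.21) and Igfbp3 lower at 416, 431 and 401 CPM in the fibroblast libraries and 115, 91.8 and 115 CPM in the calvarial-OB libraries (-1.95 ± 0.13). The proteases that cleave binding proteins split too: Pappa2 rose from 2.11 ± 0.512 to 338 ± 80.8 CPM (SD, n = 3 per group; 7.34 ± 0.26), and Pappa was lower (-1.91 ± 0.17). In this list, 8 of the 20 tested members were called higher and 7 lower, with a median log2 difference of 0.25, or 0.52 without calvarial-OB replicate 3.

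Several other imprinted growth genes were higher with Igf2. H19, the noncoding neighbour of Igf2, was measured at 12.9, 16.1 and 13.2 CPM in the fibroblast libraries and 1681, 1229 and 1149 CPM in the calvarial-OB libraries (6.59 ± 0.21). Cdkn1c (p57), an imprinted inhibitor of cyclin-dependent kinases, stood at 4.12, 4.54 and 2.73 CPM in the fibroblast libraries and 151, 118 and 122 CPM in the calvarial-OB libraries (5.13 ± 0.20), and Dlk1, a Notch-like preadipocyte factor, at 4.03, 1.65 and 2.17 CPM in the fibroblast libraries and 40.5, 21.7 and 21.8 CPM in the calvarial-OB libraries (3.37 ± 0.35). For H19, Cdkn1c and Dlk1 no fibroblast library reached the lowest calvarial-OB library. The imprinted genes Mest (-1.0 ± 0.18), Grb10 (-0.84 ± 0.14) and Peg10 (-2.52 ± 0.35) were lower. Over the imprinted list, 12 of the 21 tested members were called higher and 5 lower, with a median log2 difference of 1.01.

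Wnt signalling, which drives bone formation when ligands bind Fzd and Lrp receptors, showed several higher secreted inhibitors beside mixed ligands and receptors. Among ligands and receptors, 9 of the 30 tested members (of 34 measured) were called higher and 13 lower, with a median log2 difference of -0.15. Wnt5a, a ligand of the noncanonical branch, was lower at 150.3, 124 and 95.7 CPM in the fibroblast libraries and 38.6, 32.8 and 35.9 CPM in the calvarial-OB libraries (-1.78 ± 0.17), together with its receptor Ror2 (-1.80 ± 0.19). Lgr4, a receptor for R-spondins, was lower as well (-2.38 ± 0.15), and Fzd3 (-2.20 ± 0.19). Rspo2, an R-spondin that strengthens Wnt signals, was higher (1.79 ± 0.27), as were Fzd4 (1.67 ± 0.18), Fzd9 (2.37 ± 0.38) and the sclerostin-binding receptor Lrp4 (1.14 ± 0.17). Of the 2 co-receptors, Lrp5 did not pass the test in all 6 libraries (-0.28 ± 0.23) but passed without calvarial-OB replicate 1 (-0.63, edgeR adjusted p = 0.0024), and Lrp6 was slightly lower (-0.40 ± 0.13) with a call that was lost without either of fibroblast replicates 1 and 2 or calvarial-OB replicates 2 and 3 (edgeR adjusted p = 0.055 to 0.13).

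Among secreted Wnt inhibitors and genes that Wnt induces, 12 of the 18 tested members (of 21 measured) were called higher and 3 lower, with a median log2 difference of 1.00. Besides Sost, the inhibitor Dkk1 had 0 counts in every fibroblast library and 7.91, 17.5 and 13.2 CPM in the calvarial-OB libraries, at least 132-fold higher. Wif1, which binds Wnt proteins directly, stood at 2.84, 3.44 and 2.65 CPM in the fibroblast libraries and 39.3, 56.8 and 38.6 CPM in the calvarial-OB libraries (3.93 ± 0.22), and Sfrp4 rose by 4.32 ± 0.48. The feedback target Axin2 rose from 1.95 ± 0.354 to 5.37 ± 1.35 CPM (SD, n = 3 per group; 1.48 ± 0.29) and the nuclear effector Tcf7 by 3.78 ± 0.33. The members called lower were Dkk2 (-1.86 ± 0.19), Dkk3 (-0.83 ± 0.11) and Wisp1 (-0.60 ± 0.14).

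Bone morphogenetic proteins (BMP), which induce bone, showed several higher ligands and lower receptors. Bmp3, a ligand abundant in bone, was measured at 1.28, 0.55 and 0.643 CPM in the fibroblast libraries and 23.9, 26 and 21.6 CPM in the calvarial-OB libraries (4.79 ± 0.27), and Gdf10, a related ligand, at 3.76, 3.16 and 3.3 CPM in the fibroblast libraries and 162, 142 and 128 CPM in the calvarial-OB libraries (5.39 ± 0.16). Bmp8a (4.59 ± 0.31), Bmp6 (2.14 ± 0.37) and Bmp2 (3.62 ± 0.46) were higher too, while Bmp5 (-2.23 ± 0.31) and Gdf5 (-2.74 ± 0.51) were lower. Bmp2 was at 4.21 without replicate 1 of both groups. Bmp4 was called higher by a small amount (0.62 ± 0.22) and lost the call without fibroblast replicates 2 or 3 or calvarial-OB replicates 1 or 2 (edgeR adjusted p = 0.059 to 0.13). The receptor Bmpr1b was lower at 13.3, 12.8 and 15.2 CPM in the fibroblast libraries and 0.472, 0.471 and 1.25 CPM in the calvarial-OB libraries (-4.06 ± 0.33, or -4.83 without calvarial-OB replicate 3), and Bmpr1a (-0.81 ± 0.14), Bmpr2 (-0.95 ± 0.16) and Acvr1 (-0.66 ± 0.11) were lower by less. The antagonist Grem1 was lower (-1.32 ± 0.16), and the decoy receptor Bambi was higher (2.36 ± 0.15). The target Id1 did not pass the test (0.41 ± 0.23) except without calvarial-OB replicate 3 (0.65, edgeR adjusted p = 0.013). Over the list, 12 of the 29 tested members (of 30 measured) were called higher and 13 lower, with a median log2 difference of 0.41, which was 0.12 without calvarial-OB replicate 1.

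Genes of the transforming growth factor beta (TGF-beta) pathway were mostly lower. Of the list, 4 of the 21 tested members (of 22 measured) were called higher and 11 lower, with a median log2 difference of -0.53. That median was -0.78 without replicate 1 of both groups. The ligand Tgfb2 (-0.84 ± 0.19) and the co-receptor Tgfbr3 (-1.93 ± 0.13) were lower, while Tgfb1 was higher (1.28 ± 0.17). Proteins that hold the latent ligand in the matrix or on cells were among those that fell: Ltbp2 was measured at 2986, 2549.9 and 2552 CPM in the fibroblast libraries and 421, 473 and 408 CPM in the calvarial-OB libraries (-2.63 ± 0.13), and Lrrc32 (GARP) at 507, 374 and 418 CPM in the fibroblast libraries and 15.6, 26.8 and 20 CPM in the calvarial-OB libraries (-4.38 ± 0.22, edgeR adjusted p = 5.62e-07). No calvarial-OB library reached the lowest fibroblast library for either gene. Inhbb, an activin subunit, was lower (-2.50 ± 0.16). Ctgf, a target of the pathway, was called higher (0.47 ± 0.18) but lost the call without any 1 library other than calvarial-OB replicate 1 (edgeR adjusted p = 0.095 to 0.16).

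In the fibroblast growth factor (FGF) pathway, 9 of the 17 tested members (of 19 measured) were called higher and 3 lower, with a median log2 difference of 0.51. Fgf18, a ligand of skull bones, was higher (3.33 ± 0.39) and Fgf10 lower (-1.07 ± 0.21). The receptor Fgfr3 rose from 5.15 ± 1.81 to 19.9 ± 3.00 CPM (SD, n = 3 per group; 1.98 ± 0.25), Fgfr1 was lower (-0.52 ± 0.13), and Fgfr2 did not pass the test (0.32 ± 0.14) except with upper-quartile scaling or with all 9 libraries of the count table in the fit. The feedback targets Spry1 (2.33 ± 0.26) and Dusp6 (2.06 ± 0.16) were higher.

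In the Notch pathway, 7 of the 14 tested members (of 17 measured) were called higher and 3 lower, with a median log2 difference of 0.85. The ligands Jag1 (1.63 ± 0.13) and Jag2 (3.75 ± 0.61) were higher, and the target Heyl was measured at 0.825, 1.1 and 0.884 CPM in the fibroblast libraries and 22.7, 18.7 and 20 CPM in the calvarial-OB libraries (4.46 ± 0.22). Notch2 was lower (-1.03 ± 0.11), Notch1 did not pass the test (-0.22 ± 0.14), and Notch3 was higher (0.88 ± 0.26) with a call lost without fibroblast replicates 2 or 3 (edgeR adjusted p = 0.055 and 0.062). The target Hey2 was lower (-1.91 ± 0.39). In the fit with all 9 libraries 5 members were called lower, beside 3677 of 13438 tested genes.

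In the Hedgehog pathway, 4 of the 12 tested members (of 13 measured) were called higher and 5 lower, with a median log2 difference of -0.18. Gli1, the standard target of the pathway, was measured at 0.367, 1.51 and 0.965 CPM in the fibroblast libraries and 11.3, 16.5 and 8.56 CPM in the calvarial-OB libraries (3.73 ± 0.42), and Hhip, a feedback inhibitor, rose by 2.50 ± 0.49, or 3.13 without fibroblast replicate 1. The ligand Ihh, made by cartilage and early bone cells, had few counts in either group (group means 0.0458 and 2.3 CPM). It had 67 counts against 1, a 62.3-fold ratio with a 95% Clopper-Pearson interval of 10.8 to 2500; the fold was 40.1 without fibroblast replicate 1, 37 without fibroblast replicate 3 and at least 15.8 without fibroblast replicate 2. Dhh, another ligand, was higher (2.00 ± 0.47). Ptch1, the receptor and also a target, did not pass the test (-0.21 ± 0.23), and the transducers Smo (-0.79 ± 0.12), Gli2 (-1.23 ± 0.18), Gli3 (-1.59 ± 0.14) and Cdon (-1.64 ± 0.16) were lower.

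Hox genes, whose combination differs along the body axis, were mostly lower or at 0 counts in calvarial-OB. Of 36 measured Hox genes, 25 passed the filter, and of these 21 were called lower and 1 higher, with a fitted median log2 difference of -7.48, or -6.08 with the genes at 0 to 3 calvarial counts set to their count-based fold. Hoxb9 was measured at 79.4, 87.3 and 81.9 CPM in the fibroblast libraries and 0.118, 0 and 0 CPM in the calvarial-OB libraries, 2521 counts against 1, a 2710-fold ratio with a 95% Clopper-Pearson interval of 487 to 107000; without calvarial-OB replicate 1, which held that count, it was at least 672-fold lower, and without calvarial-OB replicate 3 the ratio was 1400. Hoxb13, the most posterior gene of its cluster, stood at 57.1, 69.7 and 60.7 CPM in the fibroblast libraries and 0, 0 and 0.125 CPM in the calvarial-OB libraries, a 1010-fold ratio with a 95% Clopper-Pearson interval of 280 to 8380. Without calvarial-OB replicate 3, which held both of its counts, Hoxb13 was at least 348-fold lower. Hoxa10, a posterior gene of another cluster, stood at 29.5, 28.1 and 27.5 CPM in the fibroblast libraries and 0, 0 and 0.0625 CPM in the calvarial-OB libraries, a 934-fold ratio with a 95% Clopper-Pearson interval of 167 to 36900, or at least 160-fold lower without calvarial-OB replicate 3, which held its 1 count.

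In the Hoxc cluster, Hoxc12 had 19.1, 22 and 18.4 CPM in the fibroblast libraries and 0 counts in every calvarial-OB library, at least 214-fold lower, and Hoxc10 was at least 209-fold lower. Hoxc13 kept a trace in calvarial-OB, at 38.6, 32 and 27.2 CPM in the fibroblast libraries and 0.236, 0.589 and 0.500 CPM in the calvarial-OB libraries (-6.13 ± 0.28). Hoxa9, Hoxa11, Hoxa13, Hoxb5, Hoxb8, Hoxc9 and Hoxc11 also had 0 counts in every calvarial-OB library, with bounds on the fold between 23.3 (Hoxc9) and 113 (Hoxa11). Hoxa6, Hoxc4 and Hoxc8 had 0 calvarial-OB counts too, from few fibroblast counts, with bounds of 9.69, 10 and 13.6. Hoxb6, Hoxb7, Hoxc5 and Hoxc6 had 1 or 2 calvarial-OB counts, and were higher in fibroblasts by ratios of 265 (95% Clopper-Pearson interval 47.1 to 10500), 112 (30.6 to 930), 39.8 (6.72 to 1610) and 72.1 (12.5 to 2890). Without the calvarial-OB library that held those counts the folds were at least 65.6, 55.5, 9.86 and 12.4, the library being replicate 3 for Hoxc6 and replicate 1 for the other 3; without calvarial-OB replicate 3 the ratios of Hoxb6, Hoxb7 and Hoxc5 were 136, 57.6 and 20.5, and without fibroblast replicate 1 that of Hoxc5 was 21.7. The bounds shrink with the depth of calvarial-OB: without calvarial-OB replicate 3 that of Hoxc12 was 110-fold. Anterior members had smaller differences or none past the threshold. Hoxa3 (-0.03 ± 0.35) did not pass the test, Hoxb2 (-1.65 ± 0.31) and Hoxb3 (-3.02 ± 0.29) were lower but detected in every calvarial-OB library, and Hoxa5 (-2.84 ± 0.41) and Hoxa7 (-3.20 ± 0.54) lay between.

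Hoxb4 was lower (-1.31 ± 0.38), but the call was lost without fibroblast replicate 1 (edgeR adjusted p = 0.079) or calvarial-OB replicate 2 (edgeR adjusted p = 0.066). Hoxa2, a gene of the neural crest of the second branchial arch, did not pass the test in all 6 libraries (1.13 ± 0.48) and was higher without fibroblast replicate 1 (1.95, edgeR adjusted p = 0.011). Some Hoxd genes were higher in calvarial-OB. Hoxd8 was the 1 gene called higher, at 0.916, 1.38 and 1.13 CPM in the fibroblast libraries and 2.72, 3.3 and 5.25 CPM in the calvarial-OB libraries (1.77 ± 0.36), and Hoxd3 and Hoxd4, below the filter, had 17 against 1 and 37 against 5 counts in the summed calvarial-OB and fibroblast libraries. Without the filter on low counts 3 Hox genes were called higher, beside 4045 of 17798 tested genes. Hoxd10, Hoxd11 and Hoxd13 had 7, 2 and 8 counts in the summed fibroblast libraries and 0 in calvarial-OB, below the filter, the direction of the posterior genes of the other clusters.

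**Figure D3:**
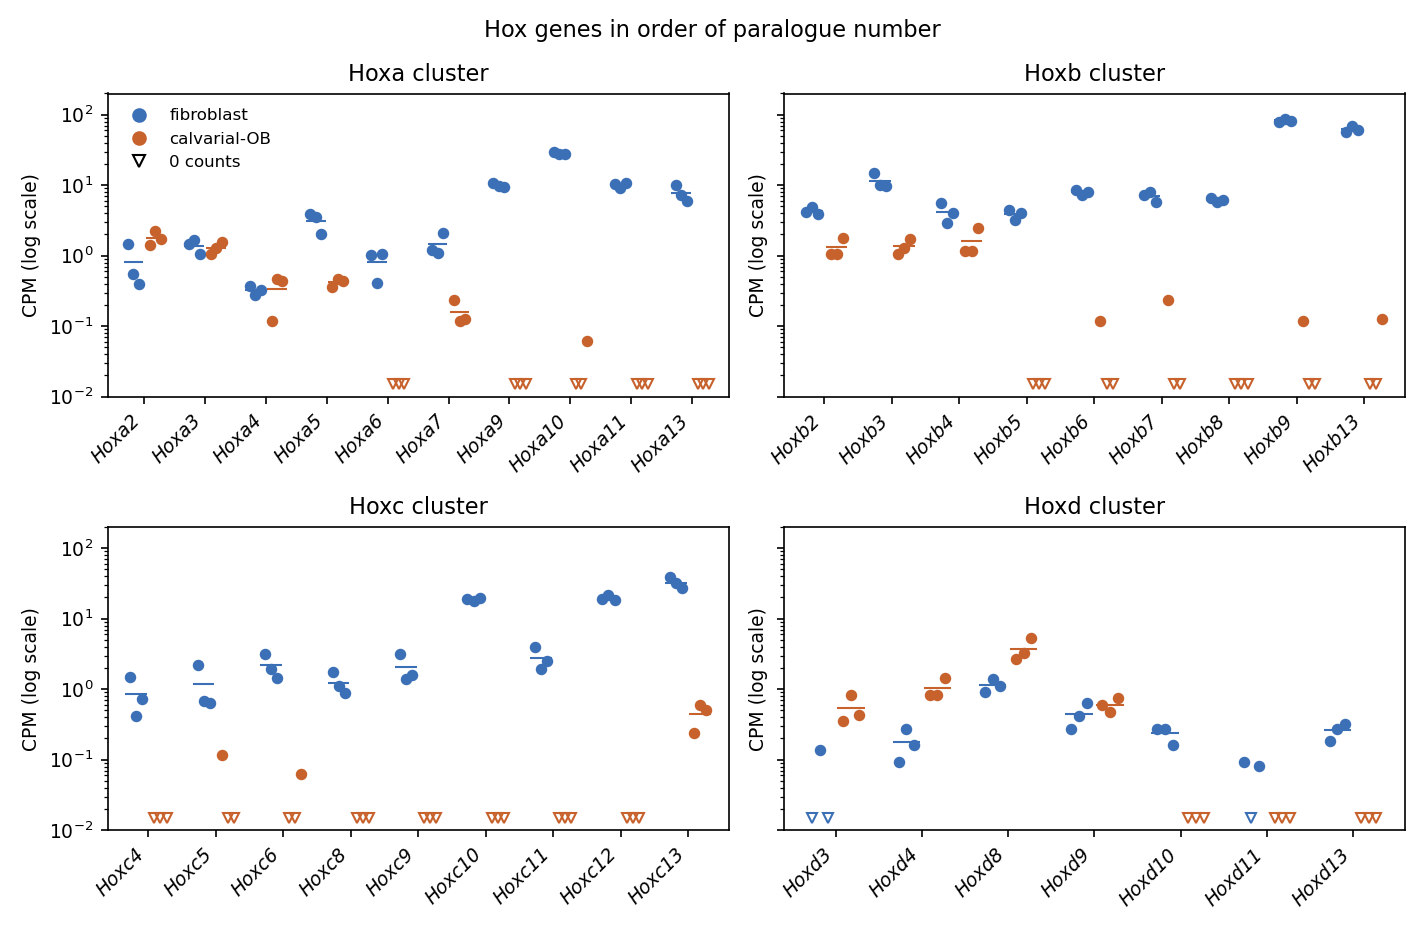
Level of Hox genes in each library, in CPM on a log axis, by cluster and in order of paralogue number from anterior (left) to posterior (right), for fibroblast (blue) and calvarial-OB (orange); bars are group means where every library had counts and open triangles mark 0 counts. In Hoxa the groups part from Hoxa5 on and in Hoxb and Hoxc from the first gene plotted, with most posterior genes at or near 0 counts in calvarial-OB; Hoxd8 was higher in calvarial-OB.

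Regulators of head mesenchyme were more often higher than lower. Six2, a homeobox factor of cranial and kidney mesenchyme, stood at 0, 0 and 0.0804 CPM in the fibroblast libraries and 34.5, 34.3 and 30.5 CPM in the calvarial-OB libraries, a 995-fold ratio with a 95% Clopper-Pearson interval of 178 to 39300; without fibroblast replicate 3, which held the 1 count, it was at least 197-fold higher, and without fibroblast replicate 1 the ratio was 640. Alx4, which patterns the skull vault, was measured at 7.42, 8.11 and 8.28 CPM in the fibroblast libraries and 39.1, 43.4 and 36.6 CPM in the calvarial-OB libraries (2.32 ± 0.15), and Alx1, a factor of frontonasal mesenchyme, had 0 counts in every fibroblast library and 11.6, 15.1 and 19.8 CPM in the calvarial-OB libraries, at least 168-fold higher. The zinc finger genes Zic1 (2.88 ± 0.21) and Zic2 (6.47 ± 0.41, or 7.84 without fibroblast replicate 3) were higher. Six4 (-1.96 ± 0.21), Foxf2 (-1.54 ± 0.27) and Tcf12 (-0.87 ± 0.12) were lower. Over the list, 15 of the 27 tested members (of 29 measured) were called higher and 6 lower, with a median log2 difference of 1.12, which was 0.93 without calvarial-OB replicate 1.

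Position regulators of limb, tail and body wall were called equally often in both directions, with 7 of the 19 tested members (of 23 measured) called higher and 7 lower and a median log2 difference of -0.24. The hindlimb factor Tbx4 was lower (-2.52 ± 0.44, or -3.19 without calvarial-OB replicate 1), as were Nkx3-2 (-3.11 ± 0.45), a factor of the vertebral column, Irx1 (-1.81 ± 0.20) and Tbx18 (-1.18 ± 0.15). Pitx1, a factor of hindlimb and jaw, had 0 counts in every fibroblast library and 4.02, 2 and 2 CPM in the calvarial-OB libraries, at least 25.7-fold higher. Tbx2 was higher (2.88 ± 0.31), and Hand2, a factor of the lower jaw, heart and limb, stood at 0.0916, 0.138 and 0 CPM in the fibroblast libraries and 3.9, 4.12 and 3.69 CPM in the calvarial-OB libraries, a 59-fold ratio with a 95% Clopper-Pearson interval of 16 to 492; the ratio was 90 without fibroblast replicate 2 and 35 without fibroblast replicate 3.

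The RNA of many extracellular matrix genes differed between fibroblasts and calvarial-OB, and the matrix itself was not measured. Among fibrillar collagens, 7 of the 11 tested members were called higher and 3 lower, with a median log2 difference of 0.95. Besides type I collagen, Col3a1 rose from 3563 ± 225 to 9635 ± 381 CPM (SD, n = 3 per group; 1.44 ± 0.12), and Col11a2, a chain of the collagen XI fibrils of cartilage and bone, was measured at 5.59, 4.68 and 4.9 CPM in the fibroblast libraries and 446, 533 and 262 CPM in the calvarial-OB libraries (6.34 ± 0.29). Of type V collagen, which sits inside type I fibrils, 2 chains were lower: Col5a2 stood at 10594, 11275 and 11497 CPM in the fibroblast libraries and 2420.2, 2703 and 2595 CPM in the calvarial-OB libraries (-2.11 ± 0.12) and Col5a1 fell by less (-0.76 ± 0.14), while Col5a3 did not pass the test (-0.50 ± 0.21). Type II collagen, Col2a1, was also lower (-1.22 ± 0.29).

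Among the other collagens, 14 of the 27 tested members (of 32 measured) were called higher and 8 lower, with a median log2 difference of 0.81, or 1.2 without fibroblast replicate 1. Their summed level ran the other way, at 15840, 18170 and 16160 CPM in the fibroblast libraries and 11600, 12000 and 10680 CPM in the calvarial-OB libraries. Col22a1, a collagen of tissue junctions, was measured at 0.367, 0.55 and 0.482 CPM in the fibroblast libraries and 118, 112 and 73.5 CPM in the calvarial-OB libraries (7.75 ± 0.29), and Col13a1, a transmembrane collagen, had a 307-fold ratio with a 95% Clopper-Pearson interval of 105 to 1490 (546 without fibroblast replicate 3). Both chains of collagen VIII rose, with Col8a1 at 2.44 ± 0.15 and Col8a2 at 3.31 ± 0.21, and Col9a1 rose by 4.67 ± 0.30. The basement membrane chains Col4a1 (-0.86 ± 0.15), Col4a2 (-1.02 ± 0.17) and Col4a5 (-1.33 ± 0.13) were lower, as were Col12a1 (-1.78 ± 0.14) and Col10a1, the collagen of hypertrophic cartilage (-3.24 ± 0.25).

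Small leucine-rich proteoglycans, which bind collagen fibrils, were mostly higher, with 10 of the 15 tested members called higher and 3 lower and a median log2 difference of 1.39. Lum rose from 222 ± 46.8 to 1059 ± 221 CPM (SD, n = 3 per group; 2.26 ± 0.20), Podn by 2.80 ± 0.23 and Dcn by 1.01 ± 0.16. Epyc, known from cartilage, rose by 6.29 ± 0.52, or 6.93 without fibroblast replicate 1. Bgn (-0.74 ± 0.13), Prelp (-0.74 ± 0.17) and Tsku (-1.31 ± 0.23) were lower.

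Fibronectin and some microfibril and elastic fibre genes were more abundant in fibroblasts, while others were higher in calvarial-OB. Fn1 was measured at 16717, 18701 and 16841 CPM in the fibroblast libraries and 3764, 4022 and 3503 CPM in the calvarial-OB libraries (-2.21 ± 0.13) and took 1.69% of fibroblast and 0.387% of calvarial-OB counts. Fbn1 (fibrillin) fell by 1.85 ± 0.12 on the log2 scale, and Fbln2, Ltbp2 and Tnc (tenascin-C) followed at -2.36 ± 0.18, -2.63 ± 0.13 and -2.09 ± 0.19. Elastin and the microfibril-associated genes Mfap2 and Mfap4 ran the other way, and the fibrillin Fbn2 was not called. Eln was measured at 12.7, 14.3 and 6.11 CPM in the fibroblast libraries and 647, 348 and 317 CPM in the calvarial-OB libraries (5.33 ± 0.38), Mfap4 at 1.47, 1.79 and 0.482 CPM in the fibroblast libraries and 408, 258 and 216 CPM in the calvarial-OB libraries (7.96 ± 0.40) and Mfap2 rose by 3.43 ± 0.23. Of this list, 7 of the 25 tested members (of 26 measured) were called higher and 13 lower, with a median log2 difference of -0.49.

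Enzymes that shape collagen were more often lower than higher, with 5 of the 26 tested members called higher and 11 lower and a median log2 difference of -0.14. Lox, the lysyl oxidase that cross-links collagen and elastin, was measured at 10102, 9167 and 9201 CPM in the fibroblast libraries and 1725, 2017 and 2945 CPM in the calvarial-OB libraries (-2.09 ± 0.19), and Loxl2 (-1.34 ± 0.14) and the lysyl hydroxylase Plod2 (-1.28 ± 0.16) were lower. The prolyl hydroxylase subunit P4ha3 (1.03 ± 0.12), the prolyl hydroxylation partner Crtap (0.81 ± 0.11) and Adamts2, which removes the amino-terminal propeptide of collagen (1.04 ± 0.14), were higher. The collagen chaperone Serpinh1 did not pass the test (-0.12 ± 0.13).

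Matrix proteases and their inhibitors were called equally often in both directions, with 10 of the 29 tested members (of 31 measured) called higher and 10 lower and a median log2 difference of 0.21. Plau (urokinase) was higher at 32.6, 32.3 and 38.2 CPM in the fibroblast libraries and 378, 213 and 232 CPM in the calvarial-OB libraries (2.99 ± 0.22), and Plat, the tissue-type activator of plasminogen, was lower at 217, 268 and 252 CPM in the fibroblast libraries and 33.4, 41.6 and 43.1 CPM in the calvarial-OB libraries (-2.64 ± 0.15). Adamts9 (2.56 ± 0.22) and Mmp23 (1.11 ± 0.14) were higher, and Adamts12 (-2.85 ± 0.16) and Mmp11 (-1.82 ± 0.22) lower. Mmp13, a collagenase of bone, was called lower (-0.54 ± 0.18), a call lost without fibroblast replicates 1 or 3 or calvarial-OB replicates 2 or 3 (edgeR adjusted p = 0.082 to 0.13). Among integrins, 9 of the 18 tested members (of 20 measured) were called higher and 6 lower, with a median log2 difference of 0.66. The summed integrin level ran the other way, at 2793, 2827 and 2959 CPM in the fibroblast libraries and 2039, 2050 and 2221 CPM in the calvarial-OB libraries. Itga10, a collagen receptor, rose from 7.23 ± 0.899 to 55.4 ± 8.91 CPM (SD, n = 3 per group; 2.94 ± 0.18) and Itga6 by 2.29 ± 0.18, while Itga5, the fibronectin receptor chain, was lower (-1.28 ± 0.15), as were Itga3 (-1.98 ± 0.20) and Itgb1 (-0.82 ± 0.13).

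Of fibroblast markers, 8 of the 22 tested members (of 23 measured) were called higher and 7 lower, with a median log2 difference of 0.10. Their summed level was nevertheless higher in every fibroblast library, at 6403, 7429 and 7739 CPM, than in the calvarial-OB libraries, at 5435, 5312 and 5301 CPM. S100a4 was lower at 721, 764 and 955 CPM in the fibroblast libraries and 258, 386 and 349 CPM in the calvarial-OB libraries (-1.30 ± 0.17). Cd34 (3.33 ± 0.18), Fap (2.64 ± 0.17) and Clec3b (4.58 ± 0.45, or 5.54 without fibroblast replicate 1), all known from connective tissue fibroblasts, were higher in calvarial-OB. Contractile genes of smooth muscle and myofibroblasts were near the background, with 4 of the 18 tested members (of 19 measured) called higher and 5 lower and a median log2 difference of -0.13. Acta2 was measured at 1718, 1170.5 and 1192 CPM in the fibroblast libraries and 759, 1396 and 1251 CPM in the calvarial-OB libraries and did not pass the test (-0.26 ± 0.23). Cnn1 (-1.04 ± 0.17) and the actin cross-linker Flna (-1.22 ± 0.14) were lower and Myl9 higher (0.88 ± 0.15). Without replicate 1 of both groups 8 contractile genes were called higher and 3 lower, with a median log2 difference of 0.19. Of 13335 tested genes, 3472 were called higher and 3398 lower in that setting.

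Of tendon genes, 7 of the 12 tested members were called higher and 3 lower, with a median log2 difference of 0.82. The higher members include Egr1 and Egr2, which are also on the list of immediate early genes below. The summed tendon level ran the other way, at 3670, 3788 and 3180 CPM in the fibroblast libraries and 3110, 2681 and 2332 CPM in the calvarial-OB libraries. Scaled by total counts alone these sums overlapped, with fibroblast replicate 3 at 2960 and calvarial-OB replicate 1 at 3087. The tendon factor Scx was slightly higher (0.75 ± 0.20) and so was Tnmd (0.90 ± 0.20), while Thbs4 was lower (-1.40 ± 0.24). Of cartilage genes, 12 of the 21 tested members (of 23 measured) were called higher and 6 lower, with a median log2 difference of 1.40. The master regulator Sox9 (0.29 ± 0.16) and the proteoglycan Acan (-0.10 ± 0.33) did not pass the test. Matn4, a matrilin, was higher at 7.61, 13.5 and 8.76 CPM in the fibroblast libraries and 359, 274 and 181 CPM in the calvarial-OB libraries (4.79 ± 0.30), and Lect1 (chondromodulin) rose by 4.36 ± 0.40. Sox5, a partner of Sox9, was lower (-2.31 ± 0.26). Prg4 (lubricin), a lubricant of joint and tendon surfaces, was lower at 885, 455 and 508 CPM in the fibroblast libraries and 3.07, 12 and 9.25 CPM in the calvarial-OB libraries (-6.23 ± 0.45), or -5.53 without replicate 1 of both groups.

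Most fat cell genes were higher in calvarial-OB. In this list 30 of the 33 tested members (of 36 measured) were called higher and 0 lower, with a median log2 difference of 3.52. Cfd (adipsin), a secreted protease of fat cells, had 0 counts in every fibroblast library and 36.4, 73.8 and 111 CPM in the calvarial-OB libraries, at least 838-fold higher. Adipoq (adiponectin) had 0 counts in every fibroblast library and 49.8, 52 and 77.7 CPM in the calvarial-OB libraries, at least 653-fold higher. Plin1, the coat protein of lipid droplets, had 1050 counts against 1, a 976-fold ratio with a 95% Clopper-Pearson interval of 175 to 38600; without fibroblast replicate 1, which held that count, it was at least 209-fold higher, and without fibroblast replicate 3 the ratio was 579. Pparg, the regulator of fat cell formation, was measured at 2.93, 3.58 and 1.77 CPM in the fibroblast libraries and 23.6, 23.4 and 35.5 CPM in the calvarial-OB libraries (3.37 ± 0.28), and Fabp4, a fatty acid carrier, at 18.4, 24.2 and 29.9 CPM in the fibroblast libraries and 241, 201 and 390.1 CPM in the calvarial-OB libraries (3.52 ± 0.27). Cd36 (7.42 ± 0.37) and Car3 (6.64 ± 0.35) rose further. The members that did not pass the test were Fasn (0.06 ± 0.15), Cebpb (0.06 ± 0.38) and Cebpd (0.71 ± 0.38). The summed level of the list was 726, 774 and 794 CPM in the fibroblast libraries and 3539, 3144 and 4634 CPM in the calvarial-OB libraries. All 3 calvarial-OB libraries were above all fibroblast libraries.

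Genes of the stromal cells that support blood formation in marrow were mostly lower, with 5 of the 15 tested members called higher and 10 lower and a median log2 difference of -0.69. Cxcl12, the chemokine that holds blood stem cells, was higher (1.01 ± 0.16) as was Lepr, while Kitl, the stem cell factor, was lower at 160.0, 118 and 112 CPM in the fibroblast libraries and 21.1, 19 and 31.1 CPM in the calvarial-OB libraries (-2.44 ± 0.21). Csf1, the growth factor of macrophages and osteoclasts, was lower at 1204, 754 and 810.2 CPM in the fibroblast libraries and 295, 425 and 387 CPM in the calvarial-OB libraries (-1.32 ± 0.20), and Angpt1 fell too (-1.74 ± 0.19).

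Macrophage genes were higher in calvarial-OB throughout the list. Here 30 of the 30 tested members were called higher and 0 lower, with a median log2 difference of 6.42. The summed level was 115, 80.0 and 55.1 CPM in the fibroblast libraries and 8750.1, 4627 and 5449 CPM in the calvarial-OB libraries, and calvarial-OB replicate 1 was the highest library. The receptor Csf1r was measured at 6.14, 5.5 and 4.5 CPM in the fibroblast libraries and 285, 133 and 138 CPM in the calvarial-OB libraries (5.11 ± 0.33), and the complement component C1qa, made by tissue macrophages, at 0.641, 0.688 and 0.482 CPM in the fibroblast libraries and 298, 143 and 138 CPM in the calvarial-OB libraries (8.33 ± 0.43). The scavenger receptor Marco stood at 0.0916, 0 and 0.161 CPM in the fibroblast libraries and 131, 93.3 and 113 CPM in the calvarial-OB libraries, a 1150-fold ratio with a 95% Clopper-Pearson interval of 393 to 5580 (2050 without fibroblast replicate 3), and the lectin Clec4n had 0 counts in every fibroblast library and 88.3, 44.7 and 71.4 CPM in the calvarial-OB libraries, at least 703-fold higher. Ptprc (CD45), carried by all white blood cells, rose from 1.38 ± 0.641 to 44.2 ± 14.9 CPM (SD, n = 3 per group; 5.05 ± 0.37). The calvarial-OB labels say nothing of a step that removes blood cells.

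Genes of osteoclasts, the bone-resorbing relatives of macrophages, were in part higher: 6 of the 10 tested members (of 15 measured) were called higher and 0 lower, with a median log2 difference of 1.04. That median was 1.4 without fibroblast replicate 1. Acp5 (TRAP) was higher at 1.19, 2.61 and 2.73 CPM in the fibroblast libraries and 25.9, 23 and 20.1 CPM in the calvarial-OB libraries (3.40 ± 0.27), Tnfrsf11a (RANK) rose by 4.37 ± 0.37 and Ctsk (cathepsin K) by 0.96 ± 0.15, all 3 also found in other cells. Calcr, the calcitonin receptor of mature osteoclasts, had 1 count in the fibroblast libraries and 1 in the calvarial-OB libraries, and Oscar was below the filter at group means of 0.34 and 0.324 CPM. Atp6v0d2 rose by 3.60 ± 0.48, or 4.37 without fibroblast replicate 3. The summed level was 264, 324 and 329 CPM in the fibroblast libraries and 632, 559 and 507 CPM in the calvarial-OB libraries.

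Markers of further cell types were also looked up. Of nerve and glial genes, 13 of the 16 tested members (of 20 measured) were called higher and 1 lower, with a median log2 difference of 1.71. Sox10, the factor of Schwann cells and neural crest, was measured at 2.75, 2.2 and 1.45 CPM in the fibroblast libraries and 26.8, 11.5 and 10 CPM in the calvarial-OB libraries (2.91 ± 0.43); calvarial-OB replicate 1 was the highest of the 6. S100b rose by 4.14 ± 0.19. Of skeletal muscle genes, 5 of the 7 tested members (of 14 measured) were called higher and 1 lower, with a median log2 difference of 7.56 or 4.57 with low-count genes at their count-based fold. The fast myosin Myh1 stood at 0.0916, 0.275 and 0.0804 CPM in the fibroblast libraries and 71.9, 53.2 and 69.4 CPM in the calvarial-OB libraries (8.83 ± 0.31), Myh2 had 0 counts in every fibroblast library and 12.2, 6.83 and 11.3 CPM in the calvarial-OB libraries, at least 106-fold higher, and Myh8 had 1317 counts against 1, a 1220-fold ratio with a 95% Clopper-Pearson interval of 219 to 48400. Without 1 library the ratio of Myh8 was 788 without fibroblast replicate 1, 727 without fibroblast replicate 3 and at least 311 without fibroblast replicate 2. Myod1 and Pax7, the markers of muscle precursors, were not among the genes with counts, and Myog was below the filter. Acta1, the actin of muscle fibres, was lower (-1.52 ± 0.26).

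Of endothelial genes, 5 of the 11 tested members (of 17 measured) were called higher and 2 lower, with a median log2 difference of -0.24, or 1.17 without fibroblast replicate 1. They summed to 86.8, 93.6 and 95.7 CPM in the fibroblast libraries and 123, 118 and 106 CPM in the calvarial-OB libraries, without overlap. The defining gene Pecam1 was below the filter and Cdh5 did not pass the test (-1.19 ± 0.54), although it was lower without calvarial-OB replicate 1 (-2.0, edgeR adjusted p = 0.0028). Kdr rose by 3.46 ± 0.74 (2.77 without calvarial-OB replicate 1 and 2.87 without fibroblast replicate 1), Flt1 by 4.24 ± 0.40, and Flt4, a receptor of lymphatic vessels, was lower (-5.22 ± 0.38). Of pericyte genes, 5 of the 9 tested members (of 10 measured) were called higher and 3 lower, with a median log2 difference of 0.88, or 1.14 without fibroblast replicate 1. Rgs5 was lower (-2.76 ± 0.34) and Mcam higher (1.64 ± 0.17). Of keratinocyte genes, 2 of the 6 tested members (of 18 measured) were called higher and 2 lower, with a median log2 difference of 0.44, or 0.08 without calvarial-OB replicate 2, and Krt5 was below the filter.

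Blood lineages other than macrophages left few counts. Of lymphocyte genes, 2 passed the filter and both were higher: Il7r (5.92 ± 0.70, or 5.05 without replicate 1 of both groups) and Cd4, which mouse macrophages can also carry, at least 32.2-fold higher. The list's fitted median was 7.03, or 5.46 with Cd4 at its bound. Of neutrophil and mast cell genes, the receptor Csf3r alone passed the filter, at least 29.7-fold higher, or at least 16.3-fold without calvarial-OB replicate 1, against a fitted value of 8.12. Members of the lymphocyte and neutrophil lists passed the filter through calvarial-OB alone and had to be higher, so these calls are descriptions. Of erythroid and platelet genes, 2 of the 5 tested members (of 9 measured) were called higher and 1 lower, with a median log2 difference of -0.56 that was 0.08 without fibroblast replicate 1, with Pf4, a platelet chemokine also made by macrophages, a 297-fold ratio with a 95% interval of 101 to 1440, and Ppbp, another platelet chemokine, lower (-7.64 ± 0.47, or -8.81 without calvarial-OB replicate 3).

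**Figure D4:**
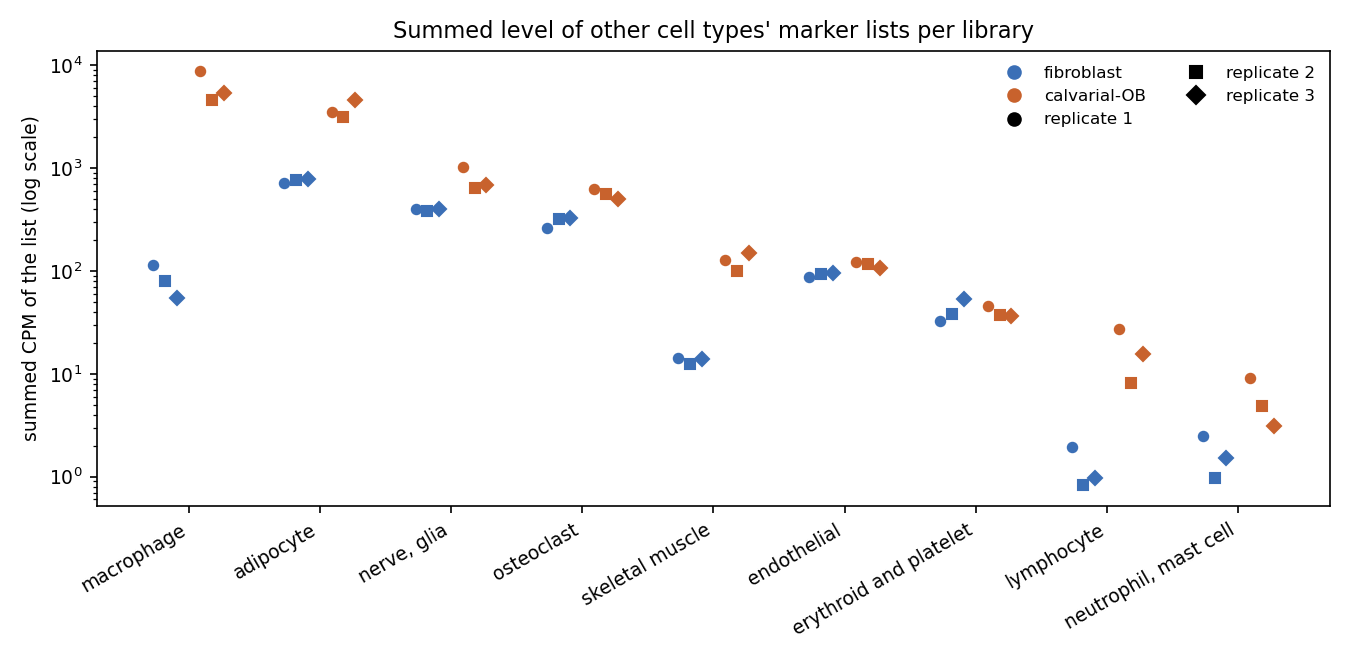
Summed CPM of the measured members of 9 marker lists of other cell types in each library, on a log axis; colour gives the group and marker shape the replicate number. Macrophage genes summed to 55.1 to 115 CPM in fibroblast and 4627 to 8750 CPM in calvarial-OB libraries, and lymphocyte and neutrophil lists stayed below 30 CPM.

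Immediate early genes, which cells switch on within minutes of a stimulus, were higher in calvarial-OB but varied strongly within both groups. In the list, 14 of the 20 tested members (of 21 measured) were called higher and 2 lower, with a median log2 difference of 1.78, a median of 1.00 without replicate 1 of both groups; the summed level was 1538, 2045 and 1211 CPM in the fibroblast libraries and 6786, 1965 and 2606 CPM in the calvarial-OB libraries. Fos was measured at 78.9, 229.9 and 28.2 CPM in the fibroblast libraries and 819, 187 and 416 CPM in the calvarial-OB libraries (2.09 ± 0.69, edgeR adjusted p = 0.0281). The groups overlapped for Fos, and its call was lost in DESeq2 (adjusted p = 0.067) and without any 1 library other than fibroblast replicate 2 and calvarial-OB replicate 2 (edgeR adjusted p = 0.05 to 0.084). Without fibroblast replicate 2, the high fibroblast library, the difference was 3.14, and without calvarial-OB replicate 1 it was 1.44. Fosb was measured at 17.9, 73.4 and 4.26 CPM in the fibroblast libraries and 517, 34.5 and 113 CPM in the calvarial-OB libraries (2.83 ± 1.03), and its call was lost under the same omissions (edgeR adjusted p = 0.063 to 0.16); the difference was 1.30 without calvarial-OB replicate 1 and 4.32 without fibroblast replicate 2. Egr1 (1.49 ± 0.46) lost its call without fibroblast replicate 1 (edgeR adjusted p = 0.052) and in DESeq2 (adjusted p = 0.053). Klf4 (2.30 ± 0.28) and Egr3 (3.67 ± 0.36) stayed called under all 14 alternative settings. Fosl1 (-1.96 ± 0.36) and Fosl2 (-1.34 ± 0.18), which respond more slowly, were lower.

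Several inflammatory genes were highest in calvarial-OB replicate 1. Il1b was measured at 0.0916, 0 and 0 CPM in the fibroblast libraries and 63.5, 0.942 and 5.56 CPM in the calvarial-OB libraries, and was below the filter. It had a 590-fold ratio with a 95% Clopper-Pearson interval of 106 to 23300, and the fold was 350 without fibroblast replicate 3, 121 without calvarial-OB replicate 1, 986 without calvarial-OB replicate 3 and at least 127 without fibroblast replicate 1. Tnf stood at 0.183, 0.413 and 0.0804 CPM in the fibroblast libraries and 366, 47.1 and 32.1 CPM in the calvarial-OB libraries (9.47 ± 1.35), or 7.56 without calvarial-OB replicate 1. Cxcl2, a neutrophil chemokine, stood at 1.92, 0.688 and 0.402 CPM in the fibroblast libraries and 416, 22 and 36.9 CPM in the calvarial-OB libraries (7.27 ± 1.30), or 4.86 without calvarial-OB replicate 1 and 8.28 without fibroblast replicate 1. Ccl3, a macrophage chemokine, rose by 8.91 ± 0.83, or 7.93 without calvarial-OB replicate 1. The same library was highest for Cd83 (197 CPM against 6.59 and 12.7), Tnfsf9 (157 against 8.95 and 7.87), Rasgef1b (158 against 10.2 and 15.2), Ccrl2 (150.2 against 11.3 and 11.2) and Tnfaip3 (241 against 13.9 and 15.1 CPM). The difference of Tnfsf9 went from 4.47 to 1.69 on the log2 scale without it and that of Rasgef1b from 5.58 to 3.35. Tnfaip3 was at 3.12 ± 1.08 and at 0.50 without it, where it no longer passed the test (edgeR adjusted p = 0.42), nor did it without fibroblast replicates 2 or 3 (edgeR adjusted p = 0.099 and 0.098). Cd83 had a 597-fold ratio with a 95% Clopper-Pearson interval of 204 to 2900, and the fold was 355 without fibroblast replicate 3, 108 without calvarial-OB replicate 1, 1040 without calvarial-OB replicate 3 and at least 385 without fibroblast replicate 1. Ccrl2 had a 719-fold ratio with a 95% Clopper-Pearson interval of 199 to 5940, and the fold was 463 without fibroblast replicate 1, 172 without calvarial-OB replicate 1, 1240 without calvarial-OB replicate 3 and at least 284 without fibroblast replicate 3. Macrophage genes were highest in this library too; whether the 2 are linked was not tested.

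In fibroblasts it was replicate 1 that stood high. Saa3, an acute phase protein, was at 76.1 CPM in fibroblast replicate 1 and at 0.138 and 0.241 CPM in replicates 2 and 3, and Steap4 at 91.1 CPM against 5.36 and 4.58 CPM. Steap4 did not pass the test in all 6 libraries and was higher in calvarial-OB without that library (2.81, edgeR adjusted p = 1.2e-05). Cxcl5, a neutrophil chemokine, was measured at 905, 97.8 and 96.9 CPM in the fibroblast libraries and 8.62, 8.95 and 9.87 CPM in the calvarial-OB libraries (-5.32 ± 0.88), or -3.39 without fibroblast replicate 1; it was lower in calvarial-OB either way. Complement C3 stood at 187, 11.7 and 11.7 CPM in the fibroblast libraries and 101, 67.3 and 87.2 CPM in the calvarial-OB libraries and did not pass the test (0.27 ± 0.85), but was higher without fibroblast replicate 1 (2.88, edgeR adjusted p = 1.5e-05). Ccl2 did not pass the test and turned from -0.82 ± 0.66 to 0.62 without that library, and Cxcl1 (0.49 ± 0.91) turned to -1.16 without calvarial-OB replicate 1. Ptgs2, the inducible prostaglandin synthase, was lower (-2.29 ± 0.25). Il6 did not pass the test (1.80 ± 0.75, edgeR adjusted p = 0.0695); it passed in DESeq2 (adjusted p = 0.02) and without calvarial-OB replicates 2 or 3, and stood at 0.52 without calvarial-OB replicate 1. Over the list, 13 of the 27 tested members (of 33 measured) were called higher and 5 lower, with a median log2 difference of 1.01.

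**Figure D5:**
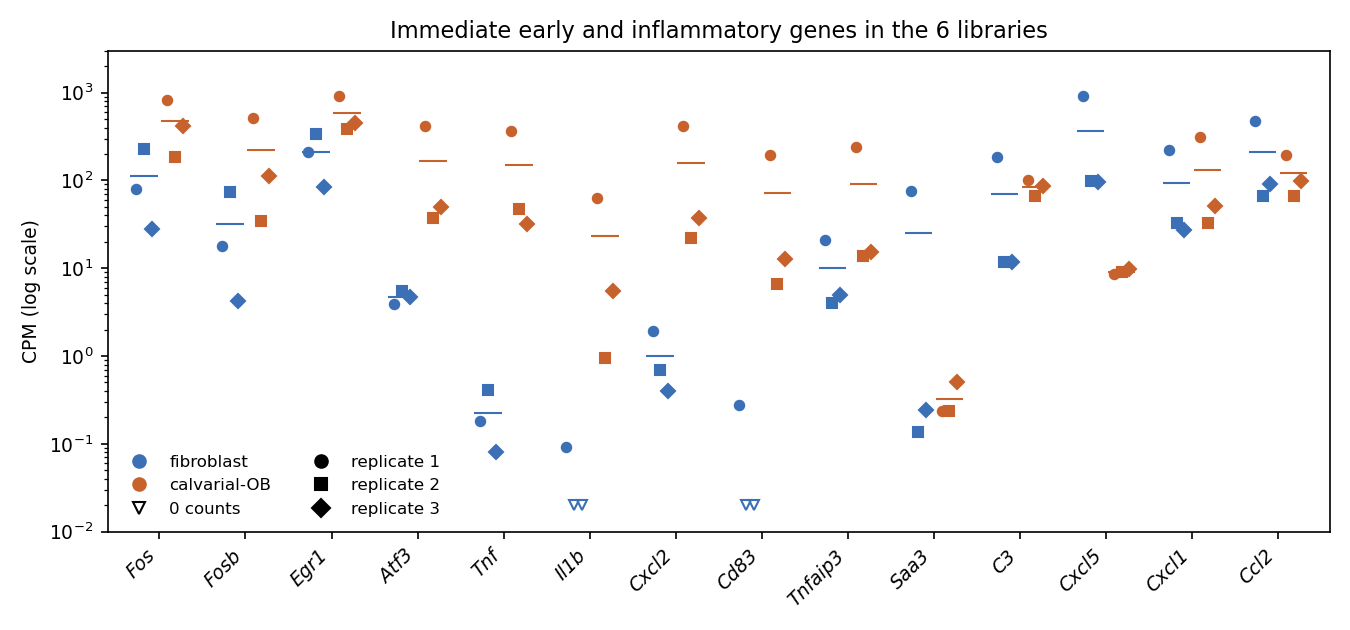
Level of 14 immediate early and inflammatory genes in each library, in CPM on a log axis; colour gives the group, marker shape the replicate, bars the group means where every library had counts and open triangles 0 counts. Calvarial-OB replicate 1 (orange circles) was the highest calvarial library for Fosb, Tnf, Il1b, Cxcl2, Cd83 and Tnfaip3, and fibroblast replicate 1 (blue circles) the highest fibroblast library for Saa3, C3, Cxcl5, Cxcl1 and Ccl2.

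Of complement genes, 11 of the 17 tested members were called higher, 1 lower and 5 not called, with a median log2 difference of 2.51. The component C4b was measured at 7.15, 6.33 and 3.62 CPM in the fibroblast libraries and 189, 171 and 136 CPM in the calvarial-OB libraries (4.87 ± 0.25), with little spread between libraries. The receptors C3ar1 (5.93 ± 0.34) and C5ar1 (6.07 ± 0.43), carried by myeloid cells, rose together with the macrophage list. The protease Masp1 was lower (-2.01 ± 0.11). Of genes for antigen presentation, 12 of the 15 tested members (of 19 measured) were called higher and 0 lower, with a median log2 difference of 1.42. The class I genes H2-K1 (1.37 ± 0.22), H2-D1 (2.71 ± 0.22) and B2m (1.56 ± 0.17) were higher, while H2-Aa of class II was below the filter.

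Interferon-stimulated genes did not move as a block, with 11 of the 28 tested members (of 30 measured) called higher and 3 lower and a median log2 difference of 0.50. Ifit1 (0.06 ± 0.42), Isg15 (1.02 ± 0.48) and Irf7 (0.54 ± 0.39) did not pass the test, although Ifit1 was lower without calvarial-OB replicate 1 (-0.67, edgeR adjusted p = 0.025). Bst2 was higher (2.74 ± 0.28), as were Oas1a (4.92 ± 0.46, or 5.52 without fibroblast replicate 2) and Oas2 (6.11 ± 0.65, or 5.41 without fibroblast replicate 3). Ddx58 was lower (-0.67 ± 0.14). Without calvarial-OB replicate 1, 6 members were called lower, beside 3656 of 13419 tested genes.

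Of cell cycle genes, 3 of the 34 tested members were called higher, a smaller share than that of all tested genes, and 10 lower, with a median log2 difference of -0.36; 21 were not called. Mki67 was measured at 156, 197 and 229 CPM in the fibroblast libraries and 104, 149.5 and 145 CPM in the calvarial-OB libraries (-0.55 ± 0.18), a call lost without fibroblast replicates 2 or 3 (edgeR adjusted p = 0.076 and 0.11). Top2a did not pass the test (-0.52 ± 0.24) except without fibroblast replicate 1 (edgeR adjusted p = 0.046), Kif20a was lower (-1.30 ± 0.29), and the replication clamp Pcna was higher (1.08 ± 0.13). The number of members called lower was 5 without fibroblast replicate 2, 2 without fibroblast replicate 3, 6 without calvarial-OB replicate 3 and 6 with upper-quartile scaling. Of all tested genes, 2698 of 13487, 2780 of 13289, 3432 of 13210 and 2798 of 13174 were called lower in these settings. With the replicate number as a block 16 members were called lower, beside 3537 of 13174 genes. The number called higher was 5 without calvarial-OB replicate 1, beside 3699 of 13419 genes. Of p53 targets and kinase inhibitors, 10 of the 26 tested members were called higher and 9 lower, with a median log2 difference of 0.02, or -0.23 without calvarial-OB replicate 1. Cdkn1a (p21) did not pass the test (0.21 ± 0.13). The p53 targets split: Ccng1 (-1.76 ± 0.20), Mdm2 (-1.01 ± 0.11) and Trp53inp1 (-1.83 ± 0.19) were lower. Perp (3.01 ± 0.37), Pmaip1 (1.66 ± 0.22) and Sesn1 (1.01 ± 0.14) were higher.

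Genes that cells induce when amino acids run short, and the tRNA synthetases induced with them, were lower in calvarial-OB. Here 29 of the 34 tested members were called lower and 1 higher, with a median log2 difference of -0.99. The list also holds Ddr2, a collagen receptor outside this response, which was lower (-1.56 ± 0.11). Asns (asparagine synthetase) was measured at 139.9, 153 and 171 CPM in the fibroblast libraries and 46.3, 56.2 and 40.6 CPM in the calvarial-OB libraries (-1.70 ± 0.15, edgeR adjusted p = 1.16e-05). Trib3 (-3.51 ± 0.32), Sesn2 (-1.98 ± 0.13) and the leucyl synthetase Lars (-1.33 ± 0.12) were lower. The amino acid transporter Slc7a11 fell by 2.55 ± 0.33 on the log2 scale. Their regulator Atf4 did not pass the test at the level of its RNA, as given above. Vldlr was the 1 member called higher (0.38 ± 0.12), a call lost without fibroblast replicates 2 or 3 (edgeR adjusted p = 0.1 and 0.077). The mitochondrial synthetase Lars2, outside this list, took 0.733% of calvarial-OB counts and was among the 10 largest shares there. Its difference between the groups did not pass the test (0.43 ± 0.40, edgeR adjusted p = 0.391).

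Glycolysis and hypoxia genes leaned lower, with 6 of the 33 tested members called higher and 18 lower and a median log2 difference of -0.42. Pkm was measured at 1761, 1842 and 2235 CPM in the fibroblast libraries and 1149, 1053 and 905 CPM in the calvarial-OB libraries (-0.91 ± 0.14), Pgk1 was lower (-0.69 ± 0.11) and Slc2a1, the glucose importer, too (-1.21 ± 0.26). Adm fell furthest among the named members (-2.10 ± 0.23), while Car9 (2.77 ± 0.38) and Ndufa4l2 (2.4 ± 0.30), 2 hypoxia targets, were higher. The number of members called lower was 11 without fibroblast replicate 1, 9 without fibroblast replicate 3, 9 without calvarial-OB replicate 2 and 11 with upper-quartile scaling. Of all tested genes, 2678 of 13270, 2780 of 13289, 2827 of 13404 and 2798 of 13174 were called lower in these settings. Ldha was called lower (-0.33 ± 0.11) and lost the call without any 1 fibroblast library or calvarial-OB replicate 2 (edgeR adjusted p = 0.058 to 0.11).

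Of the subunits of the respiratory chain and ATP synthase, 27 of the 54 tested members were called higher, 1 lower and 26 not called, with a median log2 difference of 0.37. Ndufa1 (0.80 ± 0.14), Ndufa5 (1.02 ± 0.15) and Atp5h (0.74 ± 0.11) were higher and Cox4i1 did not pass the test (0.28 ± 0.12). Sdha was the 1 member called lower (-0.30 ± 0.11), a call lost under 12 of 14 settings, among them each omission of 1 library other than calvarial-OB replicate 3 (edgeR adjusted p = 0.051 to 0.14). Of cytosolic ribosomal proteins, 25 of the 72 tested members (of 73 measured) were called higher, 3 lower and 44 not called, with a median log2 difference of 0.21. In the 6 libraries, 25.9% of all tested genes were called higher. The number of members called higher was 9 without fibroblast replicate 2 and 14 without fibroblast replicate 1. Of all tested genes, 2736 of 13487 and 2998 of 13270 were called higher in these settings. Of genes of cholesterol synthesis, 16 of the 25 tested members were called higher and 0 lower, with a median log2 difference of 0.77; Insig1 was measured at 40.5, 43.9 and 45.9 CPM in the fibroblast libraries and 136, 144 and 159 CPM in the calvarial-OB libraries (1.75 ± 0.12) and Pmvk rose by 1.71 ± 0.14.

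Genes for protein folding and export from the endoplasmic reticulum did not rise with the bone matrix, with 7 of the 39 tested members called higher and 15 lower and a median log2 difference of -0.27. Hspa5 (BiP) did not pass the test (-0.19 ± 0.13), and the chaperones Hsp90b1 (-0.82 ± 0.13) and Canx (-1.05 ± 0.14) were lower. Creb3l1 (OASIS), a membrane-bound factor that acts on Col1a1 in osteoblasts, was higher at 149.7, 116 and 108 CPM in the fibroblast libraries and 221, 257 and 181 CPM in the calvarial-OB libraries (0.82 ± 0.17), and its relative Creb3l2 was lower (-1.37 ± 0.13). Of the enzymes that set or remove DNA methylation, 4 of the 14 tested members were called higher and 2 lower, with a median log2 difference of 0.20. Dnmt3a was higher (1.10 ± 0.18) and Tet1 too (0.82 ± 0.25, a call lost without fibroblast replicate 3, edgeR adjusted p = 0.076), and Dnmt1 did not pass the test (0.05 ± 0.12).

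Among all genes at or above the median level whose groups did not overlap, the 12 with the largest rise were Cfd, Clec4n, Adipoq, Marco, Wfdc17, Ccrl2, C1qb, Tnf, Cd83, Ibsp, Xist and Fcrls. Ibsp is the bone matrix gene among them. Clec4n, Marco, C1qb and Tnf are known from macrophages, and Cfd and Adipoq from fat cells. C1qb was measured at 0.55, 0.275 and 0.402 CPM in the fibroblast libraries and 497, 232 and 209 CPM in the calvarial-OB libraries (9.49 ± 0.49). The 12 with the largest fall were Hoxb9, Hoxb13, Prg4, Hmcn1, Cxcl5, Galnt13, Kcnj15, Slc6a17, Lrrc32, Csgalnact1, Cilp and Arhgef28. Hmcn1 (hemicentin), a large matrix protein, stood at 463, 307 and 184 CPM in the fibroblast libraries and 4.13, 4.71 and 6.37 CPM in the calvarial-OB libraries (-5.93 ± 0.36), and Cilp, a matrix protein of cartilage and tendon, at 609, 616 and 505 CPM in the fibroblast libraries and 42.2, 31.4 and 28 CPM in the calvarial-OB libraries (-4.09 ± 0.18). Kcnj15, a potassium channel, was lower as well (-5.04 ± 0.22). Thbs1, a matrix glycoprotein, took the largest share of fibroblast counts after the ribosomal transcript Rn45s, at 1.9%; it was measured at 19989, 21164 and 17520.2 CPM in the fibroblast libraries and 2711, 2702 and 3196 CPM in the calvarial-OB libraries (-2.77 ± 0.14). Rn45s itself took between 2.27% and 10.9% of counts per library, and leaving it out gave 3524 genes higher and 3239 lower.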

How the data were processed

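Poly-A RNA of 3 fibroblast and 3 calvarial-OB libraries was compared from a table of raw read counts per gene symbol that the authors deposited. Per the submitters' processing notes the build was mm9, and the tools named are R 3.2.2, DESeq2, Bowtie2 and STAR 2.4.2a, with no role or order; the counting tool, annotation and strand setting were not given in the sources used here, so overlapping, antisense and near-identical genes may share reads.

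Of 17982 genes in the table, 17798 had a count in the 6 libraries and 13174 passed edgeR's filter on low counts (filterByExpr). Counts were scaled by TMM and tested with edgeR's quasi-likelihood test on these 6 libraries, with Benjamini-Hochberg adjustment over all tested genes and a threshold of 0.05; the SE is the log2 fold change divided by the square root of F. The common biological coefficient of variation was 16.8%. A fold against 0 counts was computed against 3 counts over the group and given as a bound; against 1 to 3 counts, a ratio with a 95% Clopper-Pearson interval was given, and both cover counting error only. Depth ran from 7634593 to 15023771 counts. Replicates of a group differed by more than sampling noise, so none was counted as a repeat of another library.

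The genes described and the 54 gene lists were chosen with earlier results of these data known. Named genes are the 12 largest called rises and falls among genes at or above the median level whose groups do not overlap, the first 3 members and up to 4 called members per direction with the smallest adjusted p of each list, the 10 largest shares of counts per group, the 8 most variable genes per group, every Hox gene and every cell type marker; the text describes part of this set, and genes outside it were chosen after their values were seen. Alternatives were other scalings, no filter, DESeq2, a fit with all 9 libraries of the table, Rn45s left out, the replicate number as a block and each library left out. The test was also run on simulated counts as a check of the code, with the outcome not reported here. Tools were R 4.3.3, edgeR 4.0.16, limma 3.58.1, DESeq2 1.42.0, Python 3.11.15, pandas 2.3.3, numpy 2.4.6 and matplotlib 3.10.9. Promoter sequences came from RefSeq (GRCm38.p6), not from the build of the counts. Some genes of the lists are counted in them but not reported by name here.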

Additional observations from a re-analysis of the deposited data

How the results depend on the processing

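No gene called in all 6 libraries and again under an alternative changed direction in any of the 14 alternatives. The counts of 3412 higher and 3378 lower genes became 3512 and 3262 with DESeq2's size factors in edgeR, 3950 and 2798 with upper-quartile scaling, 4045 and 3226 without the filter on low counts, 3530 and 3210 with DESeq2, 3817 and 3677 with all 9 libraries in the fit, and 3524 and 3239 with Rn45s left out. Upper-quartile scaling moved the median log2 difference of all tested genes from 0.005 to 0.107, so small differences called under TMM are relative to that choice. Leaving out 1 library gave 2736 to 3699 genes higher and 2678 to 3656 lower, lowest without fibroblast replicate 2 for higher and fibroblast replicate 1 for lower genes. Leaving out replicate 1 of both groups, an alternative chosen after seeing the data, gave 3472 and 3398.

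The labels number the replicates in both groups. Deviations from the group means of libraries with the same number correlated at 0.16, -0.018 and 0.158, so the numbers were not taken to pair the samples; with the replicate number as a block, 3513 genes were called higher and 3537 lower, and of cell cycle genes 16 were called lower against 10 without it. Calvarial-OB replicate 1 correlated best with its own number and replicate 2 with fibroblast replicate 3. With 3 libraries per group and 7634593 counts in the shallowest, genes with few counts are limited most, and their folds are bounds or wide ratios.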
